A study of Danio rerio with 2 samples.

Results

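The collagen genes were described across the cell types of a zebrafish brain preparation from *rb1* mutant and sibling larvae. All gene symbols of the form col, number, a, number were taken, which gave 54 of the 32057 gene IDs in the count tables. These 54 IDs carried 52 symbols, because *col6a3* and *col19a1* each had 2 IDs. Of the 54, 52 had a UMI (a unique molecular identifier, which marks 1 captured mRNA molecule) in both libraries and 40 had at least 20 UMIs in each. The other 14 were too rare for most comparisons and are named at the end of the account of cell types.

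Collagens are secreted proteins of the extracellular matrix whose chains wind into a triple helix after prolyl and lysyl hydroxylation in the endoplasmic reticulum. Fibrillar collagens form the cables of bone, skin and cartilage, fibril-associated collagens (FACITs) decorate them, and type IV collagens build the sheets of basement membranes. In the larval head they are known as products of neural crest mesenchyme, of the cartilages of the jaw and skull base, of skin and of vessel walls, and their chain composition differs between these tissues.

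The series title names RB1, the retinoblastoma protein, and the apoptosis of neurons, and larval brains with and without a mutation of the zebrafish gene *rb1* were dissociated for droplet single-cell RNA sequencing of mRNA 3′ ends. The mutant library came from larvae homozygous for *rb1* smu2 (smu2/smu2) and the sibling library from larvae titled sibling with the genotype wt (whether heterozygous larvae were among them is not given in the sources used here), both at 3 days post-fertilization (dpf). The labels name no treatment, and every cell of a library shares its pool of larvae. There was 1 library per genotype, so no difference between genotypes has a replicate check, no test was possible, and each interval is a 95% interval for counting error only.

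The mutant library held 8799 barcodes and 47291418 UMIs, and the sibling library 8557 barcodes and 48852464 UMIs. After limits on genes, UMIs and mitochondrial share and removal of the 7.5% of barcodes with the highest doublet score, 7873 mutant and 7539 sibling cells were retained, with medians of 3598 and 3313 UMIs. Of all deposited barcodes, 16 sequences occurred in both libraries. *rb1* itself had 172 UMIs in mutant cells (5.39 CPM, counts per 1000000 UMIs) and 173 UMIs in sibling cells (5.99 CPM), and 3′ counts do not check a sequence change. The label of brain neurons held in part: 2965 mutant and 2845 sibling cells carried the neuron markers, but cells of mesenchyme, cartilage, epidermis, muscle, endothelium and retina were present too. Cells were called "-like" a type when at least 3 of its listed markers were detected, with no collagen among the markers, and collagen levels were then compared between the gated types.

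Collagens made up 0.367% of all UMIs in mutant cells (117054 UMIs) and 0.534% in sibling cells (154030 UMIs). The summed collagen level in the mutant library was 0.688 of that in the sibling library (interval 0.683 to 0.693). The 5 most abundant members supplied 61.4% of the collagen UMIs of mutant cells and 61.3% of those of sibling cells. Fibrillar chains were 70.5% of the collagen UMIs in mutant cells and 71.1% in sibling cells, and FACIT chains were 23.2% and 22.8% in the same order. Type VI chains, which form beaded microfilaments, were 3.35% in mutant cells and 2.65% in sibling cells, and type IV chains were 1.43% and 1.54%. UMIs counted at the 3′ end are not divided by transcript length, so levels of different genes are compared here as numbers of captured mRNA ends.

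Collagen mRNA lay mainly in 2 gated classes. Cartilage-like cells (140 mutant, 147 sibling) held 45.5% of all collagen UMIs in the mutant library and 43.9% in the sibling library, and mesenchyme-like cells (628 mutant, 598 sibling) held 41.3% and 37.9%. Collagens were 4.75% of the UMIs of mutant cartilage-like cells and 5.93% of those of sibling cartilage-like cells. In mesenchyme-like cells they were 1.3% in the mutant library and 1.84% in the sibling library. Within each class single cells differed widely: the middle 50% of mutant mesenchyme-like cells spent 0.418% to 1.80% of their UMIs on collagens, and of sibling ones 0.594% to 2.35%.

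In the other classes collagens took a far smaller share than in cartilage-like and mesenchyme-like cells. Ungated cells, which met no class or tied between classes (1231 mutant, 1355 sibling), held 9.49% and 11.4% of all collagen UMIs. Collagens were 0.291% of their UMIs in the mutant library and 0.401% in the sibling one. Of the ungated cells, 82 mutant and 124 sibling cells were 1 marker short of the mesenchyme-like class. Epidermis-like cells had 0.103% in the mutant library (66 cells) and 0.576% in the sibling library (238 cells), endothelium-like cells 0.189% (26 cells) and 0.0679% (25 cells), and muscle-like cells 0.0221% (49 cells) and 0.0274% (43 cells). Radial glia-like cells, the neural stem cells of the fish brain, had 0.0505% in mutant and 0.0749% in sibling cells. Neuron-like cells had 0.00651% in the mutant library and 0.0124% in the sibling library. Red blood cell-like cells, which do not make collagen, had 4 collagen UMIs in 25 mutant cells and 1 in 26 sibling cells. Free RNA in the droplets can give such UMIs. The red blood cell-like collagen level was 0.081% of the mesenchyme-like level in mutant cells and 0.0168% of it in sibling cells. The neuron-like level was 0.501% of the mesenchyme-like level in the mutant library and 0.673% of it in the sibling library.

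**Figure D1:**
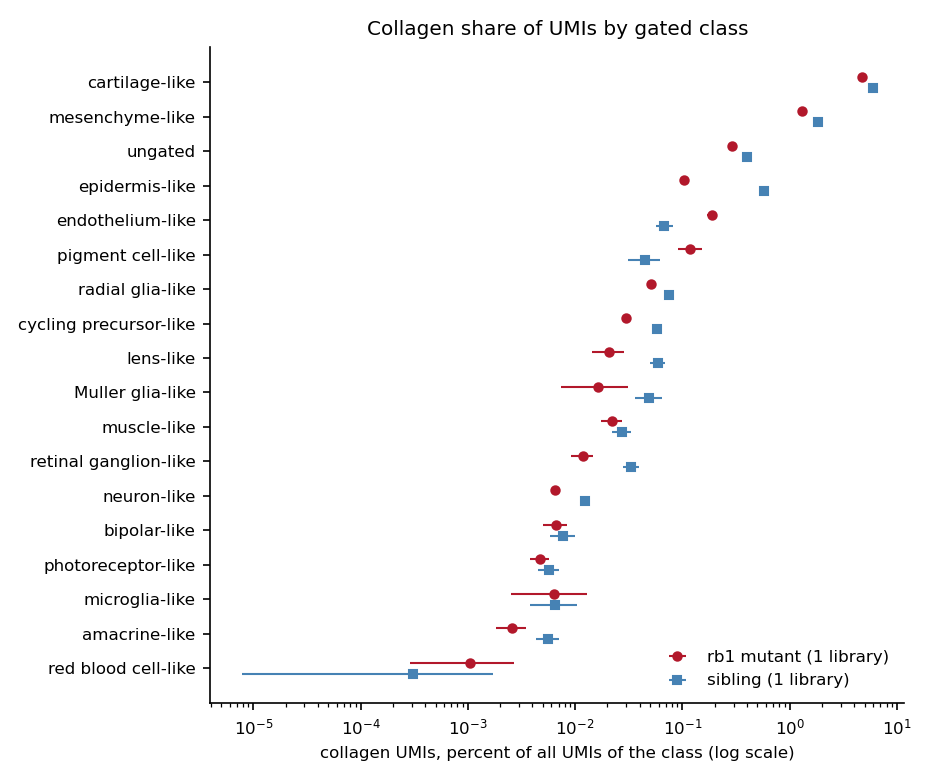
Collagen share of UMIs (percent, log axis) in each gated cell class, with the mutant point above the sibling point and exact binomial intervals that cover counting error only. Cartilage-like cells stood highest (4.75% mutant, 5.93% sibling), mesenchyme-like cells next (1.3% and 1.84%), and neuron-like cells were at 0.00651% and 0.0124%.

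Mesenchyme-like cells were chosen by *twist1a*, *prrx1a*, *pdgfra*, *foxc1a* and related markers. In them, 27 of the 40 members with enough UMIs were at least 2-fold higher than in the other retained cells in both libraries, against 11.1% of the 15633 genes tested. Type I collagen, the main fibril of bone, dermis and tendon, stood far above the other cells. *col1a2*, its second chain, had 2061 CPM in mutant and 3106 CPM in sibling mesenchyme-like cells, 29.3 and 17.6 times the level in the other cells of the same library. It was detected in 89.8% of mutant and 92.5% of sibling mesenchyme-like cells, and in 66.5% and 72.5% after every cell was thinned to 1000 UMIs. In neuron-like cells the same shares were 0.877% mutant and 1.79% sibling, and 0.429% and 0.843% after thinning (median depth 5386 mutant and 4882 sibling UMIs in mesenchyme-like cells, 2965 and 2911 UMIs in neuron-like cells).

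The duplicated first chains of type I collagen followed the same pattern. *col1a1a* had 1313 CPM in mutant and 1806 CPM in sibling mesenchyme-like cells, and *col1a1b* had 887 and 1303 CPM. Of the UMIs of this pair, *col1a1a* took 61.0% in mutant cells and 57.5% in sibling cells. *col5a1*, a chain of the type V collagen that nucleates type I fibrils, was the member found in most mesenchyme-like cells (94.4% mutant, 95.7% sibling), at 1559 CPM and 2080 CPM. Its partner chain *col5a2a* had 147 CPM in mutant and 188 CPM in sibling cells, and supplied 98.6% and 98.8% of the UMIs of the *col5a2* copies.

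*col12a1a*, a FACIT that coats type I fibrils in fascia and periosteum, had 566 CPM in mutant and 777 CPM in sibling mesenchyme-like cells, 20.7 and 17.2 times the other cells. Its copy *col12a1b* was less abundant (64.0 and 90.6 CPM). *col16a1*, another FACIT, had 34.4 CPM in mutant and 49.6 CPM in sibling cells. *col27a1b*, a fibrillar chain, had 186 UMIs in mutant and 218 UMIs in sibling cells.

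The type VI chains peaked in mesenchyme-like cells. *col6a1* had 318 CPM in mutant and 322 CPM in sibling cells, *col6a2* had 191 and 220 CPM, the more abundant *col6a3* ID had 190 and 202 CPM, and *col6a4a* had 87.9 and 89.3 CPM. *col6a1* was detected in 55.1% of mutant and 53.5% of sibling mesenchyme-like cells. The second *col6a3* ID, ENSDARG00000095915, had 21 and 20 UMIs in these cells, and reads of the *col6a3* IDs may not be cleanly separated.

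Mesenchyme-like cells also carried the chains of cartilage fibrils, and a subset of the cells held most of them. *col2a1a*, the chain of type II collagen, was detected in 42.5% of mutant and 40.3% of sibling mesenchyme-like cells (31.1% and 30.8% after thinning). Cells of this class with at least 2 cartilage markers were 219 of 628 in the mutant library (34.9%) and 225 of 598 in the sibling library (37.6%). In those cells *col2a1a* stood at 4813 CPM mutant and 7380 CPM sibling, and in the remaining mesenchyme-like cells at 581 CPM and 507 CPM. *col9a2*, a type IX FACIT chain that decorates type II fibrils, split in the same way, with 1615 and 2235 CPM in the cells with cartilage markers and 264 and 247 CPM in the others. *col1a2* was close to even over this split: 2166 CPM mutant and 2968 CPM sibling with cartilage markers, 2000 and 3201 CPM without. A class drawn by marker counts is a range, and 92 mutant and 75 sibling mesenchyme-like cells had just enough markers to be called.

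After thinning to 1000 UMIs, 46.9% of mutant and 53.1% of sibling mesenchyme-like cells had *col1a2* without *col2a1a*. Cells with *col2a1a* without *col1a2* were 11.5% and 11.4%, cells with both were 19.6% and 19.4%, and cells with neither were 22.0% and 16.1%. Across the mesenchyme-like cells of 1 library, *col1a1a* and *col1a2* levels had a Spearman rho of 0.719 in the mutant library and 0.798 in the sibling one, while *col1a2* and *col2a1a* had -0.03 and -0.10. These are descriptions over 628 mutant and 598 sibling cells that share a library, and cell depth enters each of them.

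Cartilage-like cells were chosen by *matn1*, *acana*, *hapln1a*, *sox9a* and related matrix genes. In them 14 of the 40 members were at least 2-fold higher than in the other cells in both libraries, against 5.65% of all genes tested. *col2a1a* was detected in every cartilage-like cell of both libraries and was the most abundant collagen of any class, with 20410 CPM in mutant and 25701 CPM in sibling cells. *col11a1a*, a type XI chain found inside type II fibrils, followed with 7465 and 8524 CPM, and *col11a2*, its partner chain, had 2717 CPM in mutant and 3535 CPM in sibling cells. Among the 7 chains above 1000 CPM in this class *col11a2* had the largest ratio to the other cells in the mutant library, 117, and its sibling ratio was 83.3.

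The type IX chains were as broad among cartilage-like cells. *col9a2* had 6021 CPM in mutant and 7657 CPM in sibling cells, *col9a1a* had 4388 and 5668 CPM, and *col9a3* had 3492 and 4437 CPM. Each was detected in 98.0% to 100% of the cartilage-like cells of either library. Across cartilage-like cells *col2a1a* and *col9a2* had a Spearman rho of 0.908 in the mutant library and 0.874 in the sibling one, and *col2a1a* and *col11a1a* had 0.918 and 0.873.

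Less abundant members also stood high in cartilage-like cells. *col2a1b*, the copy of *col2a1a*, had 1838 CPM in mutant and 2119 CPM in sibling cells, and *col2a1a* supplied 88.7% and 88.8% of the UMIs of the pair over all cells. *col15a1b*, a multiplexin of the basement membrane zone, had 171 UMIs (152 CPM) in mutant and 210 UMIs (184 CPM) in sibling cells. *col8a2*, a short-chain network collagen best known from the cornea, had 77.6 and 102 CPM. The type I chains were below the level of the other cells: *col1a2* had 94.5 CPM in mutant and 161 CPM in sibling cartilage-like cells.

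**Figure D2:**
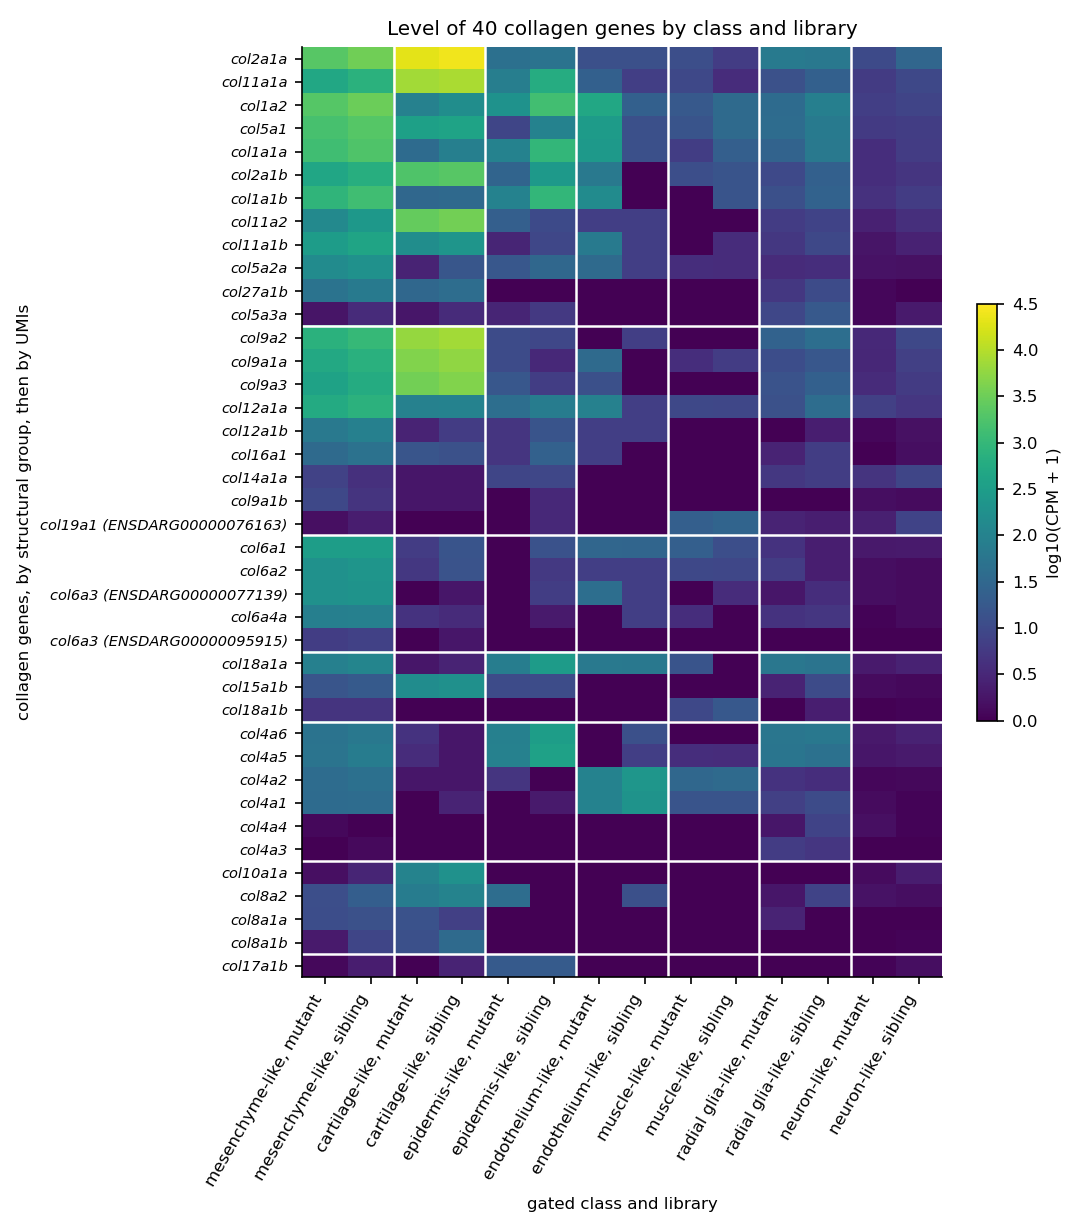
Level of each of the 40 members with at least 20 UMIs in each library, as log10(CPM + 1), over 7 gated classes, with the mutant column left of the sibling column for each class. The type I, VI and XII chains and *col5a1* were brighter in mesenchyme-like than in cartilage-like cells (*col1a2* 2061 and 3106 CPM) and *col2a1a* (20410 and 25701 CPM), *col11a1a*, *col11a2* and the main type IX chains were brightest in cartilage-like cells.

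*col10a1a*, the short-chain collagen of hypertrophic cartilage that fish also use in bone-forming cells, was carried by very few cells. It had 114 UMIs in 2 mutant cartilage-like cells and 212 UMIs in 1 sibling cell, so its class level rests on single cells. Over the whole libraries it had 316 retained UMIs in the mutant library and 762 in the sibling one.

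Type IV chains were spread over several tissues. Type IV chains pair as *col4a1* with *col4a2*, *col4a3* with *col4a4*, and *col4a5* with *col4a6*, and the members of each pair are neighbouring genes in the RefSeq gene table for GRCz12tu. *col16a1* and *col9a2* were the only other neighbouring members there, and their top classes differed. *col4a1* supplied 48.4% of the UMIs of its pair in mutant cells and 48.4% in sibling cells, and *col4a5* supplied 48.9% and 51.4% of its own. *col4a3* supplied 39.3% in the mutant library and 47.6% in the sibling one.

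*col4a1* and *col4a2*, the chains present in nearly all basement membranes, were the only members at least 2-fold higher in endothelium-like cells in both libraries. They were 2 of 40 members (5%), a share below the 8.33% of all genes. *col4a1* had 17 UMIs (98.9 CPM) in mutant and 36 UMIs (207 CPM) in sibling endothelium-like cells, and *col4a2* had 17 UMIs (98.9 CPM) and 40 UMIs (230 CPM). The same 2 members (5% of 40) were called in pigment cell-like cells, near the 4.75% of all genes. These calls rest on 3 *col4a1* and 5 *col4a2* UMIs in mutant cells and 4 and 2 UMIs in sibling cells. In mesenchyme-like cells the pair stood lower but above the other cells, with *col4a1* at 36.0 CPM mutant and 38.5 CPM sibling and *col4a2* at 38.2 and 44.2 CPM.

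*col4a5* and *col4a6* were highest in epidermis-like cells, where 4 members (10% of 40) were called against 7.25% of all genes: these 2, *col18a1a* and *col17a1b*. *col4a5* had 47 UMIs (92.4 CPM) in mutant and 331 UMIs (377 CPM) in sibling epidermis-like cells, and *col4a6* had 46 UMIs (90.4 CPM) and 282 UMIs (321 CPM). *col17a1b*, a membrane-spanning collagen of the junction between epidermis and basement membrane, had 9 UMIs in mutant and 16 UMIs in sibling cells. Its copy *col17a1a* had 3 and 60 UMIs. *col7a1*, the anchoring fibril chain below the epidermis, had 2 UMIs in mutant and 54 UMIs in sibling epidermis-like cells.

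*col4a6* was also among the 3 members (7.5% of 40) called higher in radial glia-like cells, together with *col5a3a* and *col4a3*, a share below the 10.5% of all genes. *col4a6* had 57.2 CPM in mutant and 63.4 CPM in sibling radial glia-like cells, *col4a5* had 54.5 and 46.5 CPM, and *col18a1a*, the source of endostatin, had 60.7 and 52.1 CPM. *col5a3a*, a type V chain, had 7.92 CPM in mutant and 16.9 CPM in sibling cells. *col4a3* and *col4a4* were highest in lens-like cells, where they were the 2 members called (5% of 40), against 2.73% of all genes. *col4a3* had 5 UMIs in mutant and 11 UMIs in sibling lens-like cells, and *col4a4* had 3 and 9 UMIs. *col4a5*, which was higher in other classes, also had 9 UMIs in mutant and 12 UMIs in sibling lens-like cells.

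*col18a1b*, the rarer copy of *col18a1a*, was the 1 member called in cycling precursor-like cells, with 31 UMIs in mutant and 44 UMIs in sibling cells. That was 2.5% of 40 members, a share below the 5.27% of all genes. In muscle-like cells 3 members (7.5% of 40) were called against 4.62% of all genes, namely *col4a2*, *col18a1b* and the *col19a1* ID ENSDARG00000076163. The call of *col18a1b* there rests on 3 UMIs in mutant and 6 UMIs in sibling cells. The called *col19a1* ID, a FACIT gene, had 8 UMIs (22.4 CPM) in mutant and 10 UMIs (27.1 CPM) in sibling muscle-like cells. The same ID had 13 UMIs in 9 mutant neuron-like cells and 59 UMIs in 34 sibling neuron-like cells, where its level was 1.45 and 4.17 times that of the other cells. *col14a1a*, a FACIT of the type I fibril surface, had 33 UMIs in 27 mutant and 64 UMIs in 45 sibling neuron-like cells, 1.65 and 2.44 times the other cells. These were the exceptions in neurons, in which 0 of 40 members were called in both libraries, against 20.5% of all genes.

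Of the 40 members, 36 had their highest class in common between the libraries. These were mesenchyme-like cells for 15, cartilage-like cells for 11, epidermis-like cells for 4, muscle-like and lens-like cells for 2 each, and endothelium-like and radial glia-like cells for 1 each. The 4 of epidermis-like cells were *col4a5*, *col4a6*, *col17a1b* and *col14a1a*, since *col18a1a* was highest in mesenchyme-like cells in the mutant library. Some rest on few UMIs in the class, such as *col14a1a* (4 mutant, 7 sibling) and *col18a1b* in muscle-like cells (3 and 6). The share over all genes was not computed. Copies from the fish genome duplication differed in class as well as in amount. *col11a1a* supplied 62.4% of the *col11a1* UMIs of mutant and 63.4% of those of sibling mesenchyme-like cells, but 97.9% and 97.5% of those of cartilage-like cells. *col9a1a* supplied 99.3% and 99.7% of its pair over all retained cells, *col12a1a* 90.9% and 89.6%, *col18a1a* 92.0% and 92.9%, and *col10a1a* 98.8% and 99.5%. Over all deposited barcodes *col9a1a* had 9320 UMIs and *col9a1b* 589 UMIs in the mutant library, and 12881 and 765 UMIs in the sibling one. Among retained cells the balance of 2 rare pairs differed between the libraries: *col17a1a* supplied 16.1% in mutant and 64.6% in sibling cells, and *col8a1a* supplied 68.6% and 44.7%. But *col17a1a* had only 5 retained UMIs in the mutant library and 64 in the sibling one. Over all deposited barcodes its balance with *col17a1b* turned, at 113 to 77 UMIs in the mutant library and 284 to 393 UMIs in the sibling one. The 14 rare members were *col28a1a*, *col28a1b*, *col28a2a*, *col28a2b*, *col7a1*, *col7a1l*, *col17a1a*, *col5a2b*, *col5a3b*, *col10a1b*, *col14a1b*, *col21a1*, *col24a1* and the *col19a1* ID ENSDARG00000096073. Their retained UMIs ran from 0 (*col28a2b*) to 17 (*col7a1*) in the mutant library, and from 0 (*col24a1*) to 94 (*col28a2a*) in the sibling one.

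The genotypes were compared first in mesenchyme-like cells. Of the 34 members with at least 20 UMIs over both libraries, 32 (94.1%) were lower in the mutant library, and 23 of these had an interval entirely below a ratio of 1. Over the 9758 genes with enough UMIs, 53.7% were lower in the mutant library. The median ratio of mutant to sibling was 0.727 over the 34 members and 0.976 over all genes. The summed collagen level of mutant mesenchyme-like cells was 0.706 of the sibling level (interval 0.697 to 0.714).

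The size of the difference varied between kinds of collagen. Short-chain network members together stood at 0.539 of the sibling level in mutant mesenchyme-like cells, fibrillar members at 0.686, FACITs at 0.720, type IV at 0.798, multiplexins at 0.822 and type VI at 0.943 (interval 0.895 to 0.994). The short-chain members were rare in this class, with *col8a1b* at 1.08 CPM in mutant and 7.57 CPM in sibling cells and *col8a1a* at 10.5 and 12.3 CPM. *col1a2* was 0.664 of the sibling level (0.644 to 0.684), *col1a1b* 0.681 and *col1a1a* 0.727. *col5a1* stood at 0.750 and *col12a1a* at 0.728. *col11a2* had the lowest ratio of the members above 100 CPM in both libraries, at 129 CPM in mutant and 248 CPM in sibling cells (0.520, interval 0.463 to 0.583).

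Type VI chains were closest to equal. *col6a1* had a ratio of 0.988 (0.908 to 1.08), *col6a4a* of 0.985 and the main *col6a3* ID of 0.939, and *col6a2* stood at 0.867. *col18a1b*, a multiplexin, had 14 UMIs in mutant and 12 UMIs in sibling cells (0.994). *col4a1* was at 0.936 and *col4a2* at 0.864, with intervals that included 1.

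By the 2-fold rule, 2 members were higher and 1 was lower in mutant mesenchyme-like cells, against 2.75% and 3.02% of all genes. All 3 had few UMIs. *col9a1b* had 32 UMIs in mutant and 12 UMIs in sibling cells (ratio 2.27, 1.14 to 4.85), *col14a1a* had 25 and 10 UMIs (2.13, 0.988 to 4.97), and *col8a1b* had 4 and 24 UMIs (0.142, 0.0358 to 0.413).

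Other values moved with this difference, and their part in it was not tested. The 12 mesenchyme gate markers, which hold no collagen, summed to 2821 CPM in mutant and 3719 CPM in sibling mesenchyme-like cells, a ratio of 0.758 with 9 of 12 lower in the mutant library. The 10 cartilage markers summed to 1145 CPM in mutant and 1558 CPM in sibling mesenchyme-like cells, with 10 of 10 lower, and *acanb* was at 0 in the mutant. The 12 epidermis markers summed to 108 CPM in mutant and 514 CPM in sibling mesenchyme-like cells, with *agr1* and *krt92* at 0 in the mutant and *tp63* at 0 in the sibling library. The markers of cycling precursors went the other way, with 577 CPM in mutant and 442 CPM in sibling mesenchyme-like cells and 2 of 10 lower. The summed muscle markers were near equal (100 CPM mutant, 95.3 CPM sibling), with 10 of 15 lower in the mutant library. The pigment cell markers had only 20 UMIs in mutant and 4 UMIs in sibling mesenchyme-like cells. Median depth in this class was 5386 UMIs in the mutant library and 4882 UMIs in the sibling one.

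In mesenchyme-like cells with fewer than 2 cartilage markers the summed collagen ratio was 0.748, and in those with 2 or more it was 0.707. *col1a2* was lower in both sets (0.625 without and 0.730 with cartilage markers). *col2a1a*, at 0.649 over the whole class, differed between them, at 1.15 in cells without and 0.652 in cells with cartilage markers, and *col9a2* stood at 1.07 and 0.723.

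**Figure D3:**
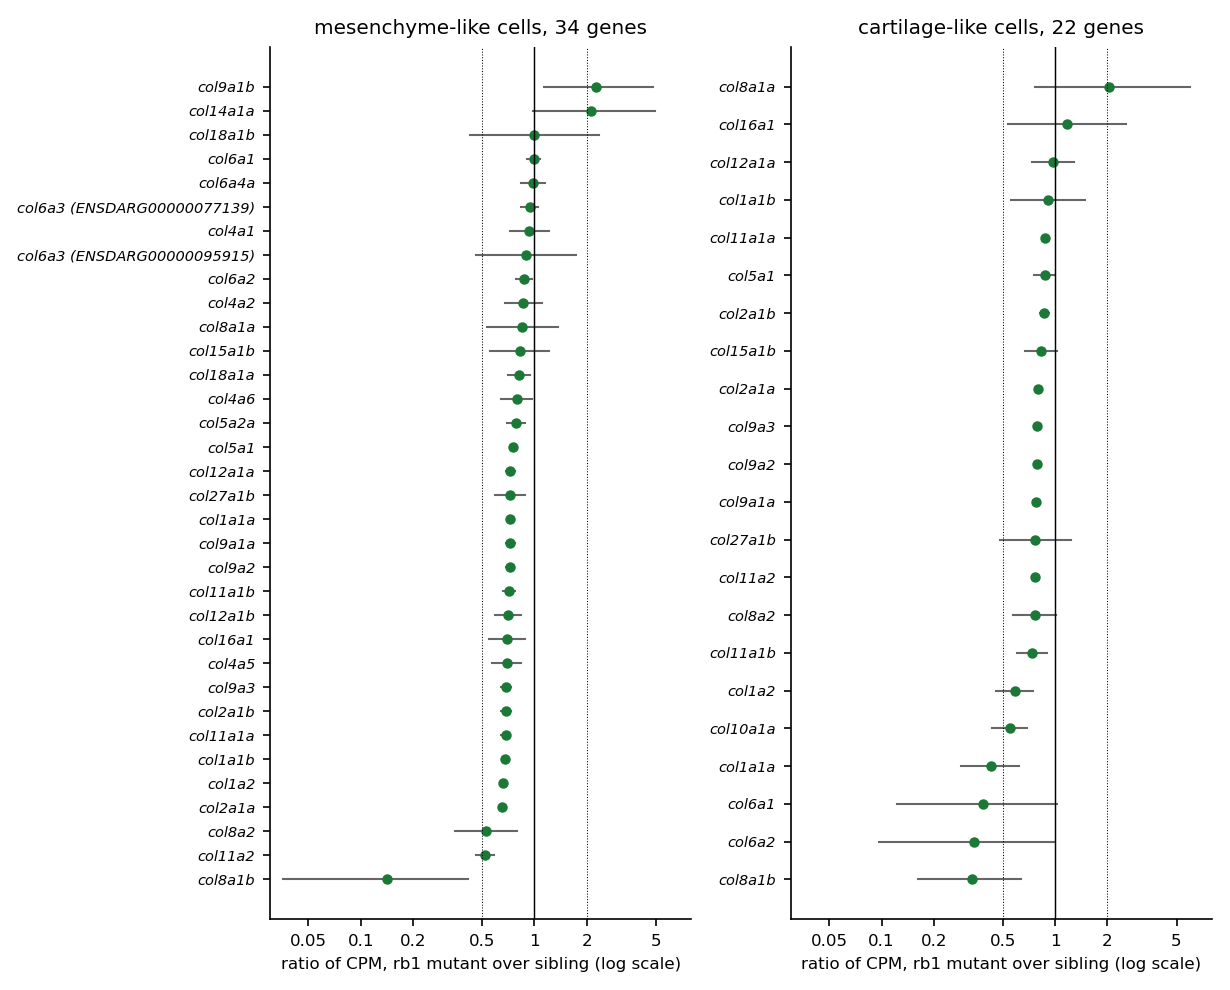
Ratio of the mutant to the sibling level (log axis) for the 34 members with at least 20 UMIs in mesenchyme-like cells and the 22 in cartilage-like cells; points are ratios and bars exact intervals for counting error only. Most points lie left of 1 (32 of 34 and 20 of 22), with *col6a1* and *col6a4a* near 1 in mesenchyme-like cells.

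In cartilage-like cells the summed collagen level of the mutant library was 0.802 of the sibling level (0.793 to 0.811). Of 22 members with enough UMIs, 20 were lower in the mutant library (*col8a1a* and *col16a1* were not), with a median ratio of 0.780, against 0.972 over all genes of the class. The abundant chains lay in a narrow band of ratios: *col2a1a* at 0.794, *col11a2* at 0.769, *col9a1a* at 0.774, *col9a2* at 0.786, *col9a3* at 0.787, *col2a1b* at 0.867 and *col11a1a* at 0.876. The 10 cartilage markers, which include the abundant *matn1*, summed to 26373 CPM in mutant and 38530 CPM in sibling cartilage-like cells (0.684), with 7 of 10 lower in the mutant library.

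By the 2-fold rule 1 member was higher and 4 were lower in mutant cartilage-like cells, against 3.48% and 4.87% of all genes. The 4 were *col1a1a* (41 UMIs mutant, 98 UMIs sibling, 0.426), *col8a1b* (13 and 40 UMIs, 0.331), *col6a1* (6 and 16 UMIs) and *col6a2* (5 and 15 UMIs). The 1 higher was *col8a1a*, with 14 UMIs in mutant and 7 UMIs in sibling cells (2.04, 0.769 to 5.96).

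Smaller amounts in neural classes showed the same direction. The summed collagen level was 0.525 of the sibling level in mutant neuron-like cells, 0.515 in cycling precursor-like cells and 0.674 in radial glia-like cells. Over all genes the median ratios were 0.880, 1.02 and 1.05 in the same order, with 65.8%, 47.4% and 43.5% of genes below 1. In the sibling library the top cell of each class held 350 of 1030, 549 of 2950 and 105 of 532 collagen UMIs, in the same order. With the top cell of each library left out, collagens were 0.00595% of UMIs in mutant and 0.00819% in sibling neuron-like cells. They were 0.0277% and 0.0475% in cycling precursor-like cells, and 0.0458% and 0.0604% in radial glia-like cells. By the 2-fold rule 13 of 29 members were lower and 1, *col5a2a* (24 UMIs mutant, 10 UMIs sibling), was higher in mutant cycling precursor-like cells, against 2.6% and 6.65% of all genes. In radial glia-like cells 6 of 15 were lower and 0 higher, against 3.75% and 6.78%. In cycling precursor-like cells *col2a1a* had 89 UMIs (14.7 CPM) in mutant and 366 UMIs (72.3 CPM) in sibling cells, while *col6a1* had 18.0 and 16.6 CPM. The summed mesenchyme markers of these cells stood at 45.6 CPM in the mutant library and 86.9 CPM in the sibling one, and the summed cartilage markers at 78.4 and 119 CPM. The part of cells of those tissues in these values was not tested.

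Epidermis-like cells had the lowest ratio of any class. Among the retained cells 17 of 18 members were lower in the mutant library and 13 were at least 2-fold lower, against 15.6% of all genes in this class. The summed ratio was 0.178 (0.163 to 0.195). *col1a2* had 98 UMIs in mutant and 1221 UMIs in sibling epidermis-like cells (0.139), *col1a1a* 49 and 823 UMIs (0.103), and *col4a5* 47 and 331 UMIs (0.245). *col17a1b* (0.971) and *col2a1a* (0.902) were the nearest to equal. *col8a2* went the other way, with 20 UMIs in mutant and 0 UMIs in sibling cells, the 1 member at least 2-fold higher, against 8.75% of all genes.

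The retained epidermis-like cells did not match between the libraries. The median depth was 6721 UMIs in the mutant library and 1339 UMIs in the sibling one. *krt5*, a keratin, stood at 778 CPM in mutant and 5181 CPM in sibling cells, and *krtt1c19e*, another keratin, at 1926 and 6793 CPM. But *tp63*, a basal epidermis factor, stood at 86.5 and 84.2 CPM (44 and 74 UMIs), and *krt4*, a keratin, at 13096 and 12589 CPM. The 12 epidermis markers summed to 42540 CPM in mutant and 61019 CPM in sibling cells, with 8 of 12 lower in the mutant library. Cells with *tp63* were 17 in the mutant library (25.8% of the class) and 31 in the sibling one (13.0%), and they held 403 of 523 and 3667 of 5061 collagen UMIs of the class. In cells with *tp63* collagens were 0.237% of UMIs in mutant and 1.40% in sibling cells (median depth 7297 and 9498 UMIs). In cells without *tp63* they were 0.0354% and 0.226% (median depth 5459 and 1172 UMIs). The part of *tp63* cells and of depth in the ratio was not tested. Neuron markers summed to 147 CPM in mutant and 997 CPM in sibling epidermis-like cells.

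Epidermis-like barcodes outside the limits on genes and UMIs gave the opposite direction. There were 37 of them in the mutant library and 78 in the sibling one, with 14280 and 27260 collagen UMIs, which is more collagen than the retained epidermis-like cells held. Collagens were 0.729% of their UMIs in the mutant library and 0.555% in the sibling one, a ratio of 1.31 (1.29 to 1.34), with *krt5* at 9725 CPM in mutant and 9743 CPM in sibling barcodes, *krt4* at 38667 and 54268 CPM and *krt92* at 680 and 369 CPM. Of 17 members with enough UMIs in both sets, 17 were below a ratio of 1 among retained cells and 12 were above 1 outside the limits. Over all genes with enough UMIs, 52.6% were below 1 among retained cells and 51.4% outside. Over all 22 members with enough UMIs outside the limits, 9 were below 1, and the median ratio was 1.19. *col1a2* stood at 0.139 among retained cells and 1.28 outside, *col17a1a* at 0.0863 and 1.29, and *col7a1* at 0.0639 and 1.69. *col28a2a*, a type XXVIII chain, stayed below 1 in both (0.0416 and 0.402).

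**Figure D4:**
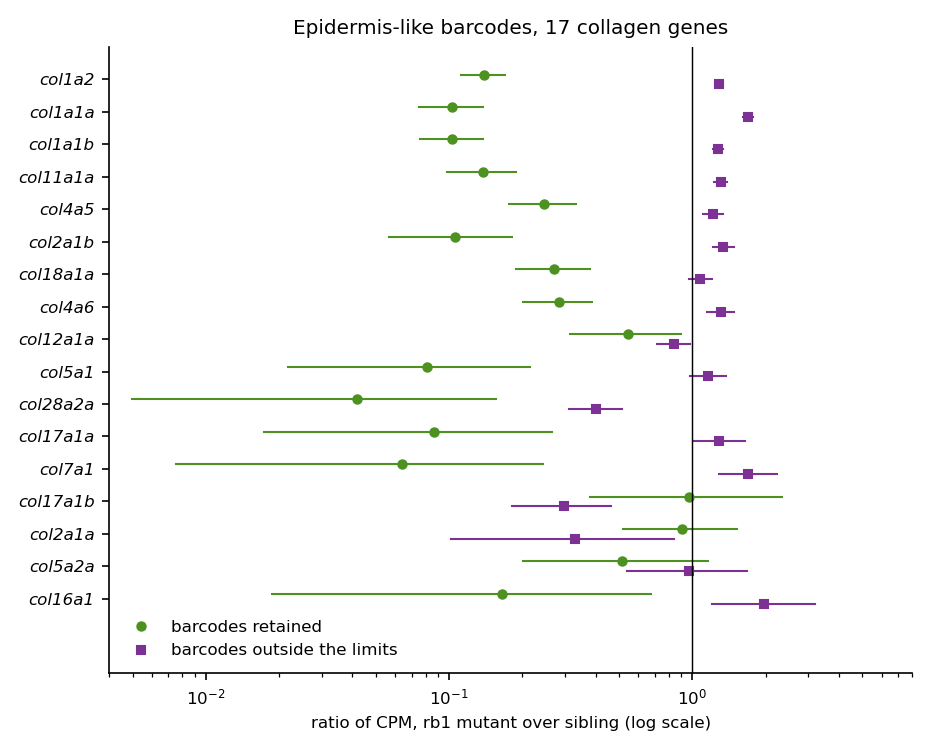
Ratio of the mutant to the sibling level (log axis) of 17 collagens in epidermis-like barcodes, among retained cells and outside the limits on genes and UMIs, with exact intervals for counting error only. All 17 lie below 1 among retained cells, and 12 lie above 1 outside the limits.

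The summed collagen level of endothelium-like cells was decided by 1 cell. In the mutant library that cell held 248 of the 325 collagen UMIs, including 79 of 85 *col1a2* UMIs, and no *col4a1* or *col4a2* UMI. With it the summed ratio was 2.79. Of 7 members with enough UMIs, 4 (*col1a1a*, *col1a1b*, *col1a2* and *col5a1*) were at least 2-fold higher in the mutant library, against 9.21% of all genes. The 2 at least 2-fold lower, against 9.82% of all genes, were *col4a1* and *col4a2*, which had no UMI in that cell. The sibling cell with most collagen held 23 of 118 collagen UMIs. With the top cell of each library left out, collagens were 0.0462% of UMIs in mutant and 0.0573% in sibling endothelium-like cells. The 10 cartilage markers summed to 24 UMIs in mutant and 1 UMI in sibling endothelium-like cells.

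The filters took away part of the UMIs of collagens and of all genes. Retained cells held 65.6% of all deposited collagen UMIs in the mutant library and 60.8% in the sibling one, and barcodes outside the limits held 29.2% and 32.0%. Over all genes, 31887164 of 47291418 deposited UMIs were retained in the mutant library and 28869101 of 48852464 in the sibling one. The share retained was not computed for single genes other than the members. The median share retained was 62.4% over the 38 members with at least 100 deposited UMIs in the mutant library and 62.6% over the 40 such members in the sibling one. *col6a1* kept 82.5% and 89.0% of its UMIs, but *col4a5* kept 23.3% in the mutant library and 21.3% in the sibling one. Of the 38 members with at least 100 deposited UMIs in both libraries, 11 besides *col10a1a* kept under 50% in both. Among them were *col4a5*, *col4a6*, *col7a1*, *col15a1b*, *col17a1a*, *col18a1a* and *col28a2a*. Some rarer members also kept under 50% in both, such as *col17a1b* (33.8% mutant, 8.91% sibling). *col9a1b* kept 8.83% in the mutant library and 3.92% in the sibling one.

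**Figure D5:**
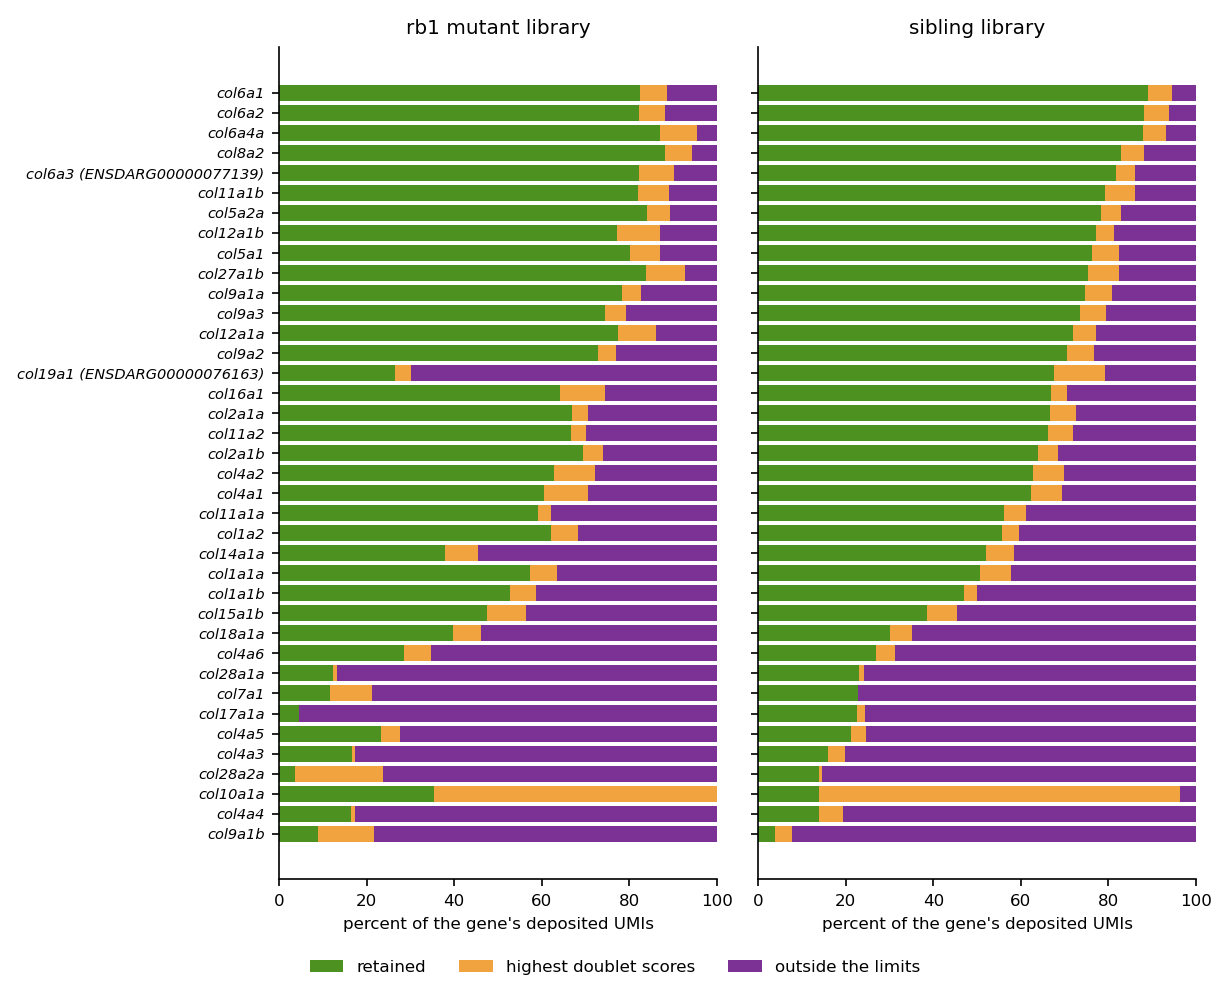
Share of each member's deposited UMIs (percent) in retained cells, in barcodes removed as doublets and in barcodes outside the limits, mutant panel left of sibling panel, for the 38 members with at least 100 UMIs in each library. Type VI chains were mostly retained (*col6a1* 82.5% and 89.0%), and *col4a5* (23.3% and 21.3%) mostly lay outside the limits.

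Genes that act on collagen were read from a list of 62 names, of which 61 were in the tables and 56 had enough UMIs. In mesenchyme-like cells 46 of the 56 were at least 2-fold higher than in the other cells in both libraries, against the 11.1% of all genes given above, and 4 were lower. The 4 lower were *bmp1b*, *pcolceb*, *mmp9* and *mmp13a*. All 14 matrix partners tested were higher, but 3 of them (*fn1b*, *lum* and *dcn*) are also gate markers of the class.

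Against sibling mesenchyme-like cells, 38 of 52 such genes with enough UMIs were lower in the mutant library, with a median ratio of 0.831, against 53.7% and 0.976 over all genes of the class. None was at least 2-fold higher, and 2, *pcolceb* and *pcolce2b*, were at least 2-fold lower, against 2.75% and 3.02% of all genes. Both of these had few UMIs, each with 7 in mutant and 20 in sibling cells (0.298, 0.107 to 0.734). Among the most abundant of each role, *serpinh1b*, the procollagen chaperone Hsp47, had 3474 CPM in mutant and 4562 CPM in sibling cells (0.762), while *ppib*, a prolyl isomerase, was nearer to equal at 1116 and 1224 CPM (0.911). The 5 secretion genes all had a ratio below 1. Among them were *creb3l2*, a regulator of collagen export (0.775, 0.631 to 0.953), and *sec23a*, a coat protein of export vesicles (0.735, 0.525 to 1.03). The intervals of *sec24d* (0.504 to 1.71) and *creb3l1* (0.646 to 1.39) also included 1. *pcolcea*, which enhances removal of the C-terminal propeptide, stood at 0.747, but *loxl2b*, a collagen cross-linking oxidase, had 72.3 CPM in mutant and 54.9 CPM in sibling cells (1.32).

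Of the matrix partners, *sparc*, a collagen-binding glycoprotein, had 2666 CPM in mutant and 3444 CPM in sibling mesenchyme-like cells (0.774), and *postnb*, a periostin, stood at 0.737. The proteases *mmp2* and *mmp14a* stood at 0.647 and 0.819. The collagen receptors were rare and did not move together, with the integrin chain *itga11a* at 13.4 CPM in mutant and 21.8 CPM in sibling cells (0.617) and the receptor tyrosine kinase *ddr2a* at 14.5 and 13.3 CPM (1.1).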

How the data were processed

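The deposited matrices hold UMI counts per gene and barcode, which the authors made from 10x 3′ libraries; the submitters' processing notes name Cell Ranger 5.1.0, Seurat 3.1.1 and GRCz11, and the file headers Cell Ranger 5.0.0. The paper that cites these libraries kept barcodes with 200–3000 genes, fewer than 20000 UMIs and a mitochondrial share below 15%, and dropped 7.5% as doublets. The same limits were applied here, with the highest Scrublet scores removed (scanpy 1.11.5, Python 3.11.15). Cells were gated into 17 classes by at least 3 detected markers. Non-neural and retina classes also needed summed markers at least 3 times the library's share. Non-neural classes were taken before retina classes and these before brain classes, and ties stayed ungated. UMIs were summed per library and class and given as CPM, with exact Poisson, conditional binomial and Clopper-Pearson 95% intervals (scipy 1.17.1). A call needed a 2-fold difference and 20 UMIs. Named genes were the 3 members of each structural group with the most UMIs, the 5 each way with the largest ratio between libraries in mesenchyme-like cells and 3 each way in other classes, neighbouring and duplicated pairs, and 2 genes per pathway role; others, such as those behind a count of 5 or fewer, were named after their values were seen. Clustering (leidenalg 0.10.2) was an alternative to gating. The members and lists were chosen with earlier results of these data known. Code was tested on simulated data. Sequences are not printed here.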

Additional observations from a re-analysis of the deposited data

Results flagged for a closer look

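The ratio of mutant to sibling level in some classes stood opposite to, or far from, that in mesenchyme-like cells, where *col1a2* was at 0.664 and *col1a1a* at 0.727. None of these differences between classes was tested, since each genotype had 1 library. In endothelium-like cells *col1a1a* stood at 22.8 (45 UMIs mutant, 2 UMIs sibling), *col1a2* at 21.5, *col5a1* at 25.3 and *col1a1b* at 8.43 against a limit of 3 counts for the sibling cells, which had 0 of its UMIs. A single mutant cell held 248 of the 325 collagen UMIs there. In epidermis-like cells *col1a1a* stood at 0.103, *col1a1b* at 0.103, *col1a2* at 0.139 and *col5a1* at 0.0812. In cartilage-like cells *col1a1a* stood at 0.426.

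Collagen was also present in barcodes that the comparisons left out. It was 0.209% of the UMIs of doublet-scored barcodes in the mutant library and 0.499% in the sibling one, and 0.473% and 0.496% of the UMIs of barcodes outside the limits. *col10a1a* had 579 UMIs in doublet-scored barcodes of the mutant and 4537 in those of the sibling library, against 316 and 762 UMIs in retained cells.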

How the results depend on the processing

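Of 860 values that 16 other settings gave for 70 single ratios, 836 lay on the same side of 1 as the value given. By size, 493 lay within the counting interval of the value given and 356 lay outside it. The other 11 took a difference of at least 2-fold to the other side of 1. The summed mutant to sibling ratio in mesenchyme-like cells (0.706) stood at 0.714 with 2 markers, 0.715 with 4 markers, 0.727 and 0.723 with marker enrichment of 2 and 5 times, 0.695 without doublet removal, 0.696 over all deposited barcodes, 0.748 after thinning to 1000 UMIs, 0.774 with Leiden clusters built without collagens, 0.731 as a mean over cells, 0.723 with the median gene ratio as scaling, and 0.748 with cells of 2 cartilage markers left out. Members lower in the mutant library ran from 24 of 33 with marker enrichment of 5 times to 29 of 29 with a minimum of 50 UMIs. The cause of these shifts was not tested.

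Members at least 2-fold higher in mutant mesenchyme-like cells (2) numbered 1 with 4 markers, without doublet removal, over all barcodes and with Leiden clusters, and 0 with enrichment of 2 times, thinning, a minimum of 50 UMIs, a fold of 3 and the cartilage-marker cells left out. Members at least 2-fold lower (1) numbered 3 over all barcodes and with a minimum of 10 UMIs, 2 without the cell with most collagen of each class, and 0 with enrichment of 5 times, thinning, a minimum of 50 UMIs and the cartilage-marker cells left out. Members called in epidermis-like cells (4) numbered 7 without doublet removal and 11 over all barcodes, and in muscle-like cells (3) they numbered 1 over all barcodes and 1 after thinning.

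Some directions turned. The cartilage-marker cells left out of the class were counted among the other cells in the comparison of class to other cells. Set so, the remaining mesenchyme-like cells had less *col2a1a* than the other cells (0.540 mutant, 0.322 sibling). Their *col9a2* was lower too (0.793 and 0.516). The cells moved had held most of both within the class. Over all deposited barcodes *col4a2* in muscle-like cells stood at 0.0851 mutant and 0.286 sibling, and in epidermis-like cells the mutant to sibling ratio was 1.17 summed, 1.16 for *col1a2*, 1.48 for *col1a1a*, 1.05 for *col4a5* and 1.07 for *col4a6*, where the barcodes outside the limits were added.

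Leaving out the cell with most collagen and leaving out the cartilage-marker cells were chosen after seeing the data. The Leiden clusters gave no endothelium class in the mutant library, so its values were not computed. No paired analysis was possible because each genotype had 1 library. The same lack of replicates, free RNA and the depth of rare members limit every ratio: classes under 50 cells in a library and members under 20 UMIs allow no more than the values given.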

Other observations

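The barcodes with the most *col10a1a* were few. With at least 5 UMIs of *col10a1a*, there were 4 mutant and 3 sibling retained cells, 3 mutant and 6 sibling doublet-scored barcodes, and 0 mutant and 1 sibling barcodes outside the limits. The genes that led these barcodes over the rest of their library included *ifitm5*, *panx3* and *cd81b* in both libraries, of which *ifitm5* is known from bone-forming cells. In the sibling library *enam* ranked first, with 2573 UMIs (19406 CPM). Lower in the sibling ranking were *phex* (rank 6) and *entpd5a* (rank 8), which act in mineralization. These barcodes were chosen after their values were seen, and their cell type was not called.

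Mesenchyme-like barcodes outside the limits were 13 in the mutant library and 15 in the sibling one, with a summed collagen ratio of 0.463. There 19 of 28 members were below 1, against 65.0% of all genes, whose median ratio was 0.849. *col4a5* (9.77), *col4a6* (4.93) and *col6a1* (2.92) were at least 2-fold higher in the mutant library, and 14 members at least 2-fold lower, against 6.73% and 14.5% of all genes. Cartilage-like ones were 5 and 7, with a ratio of 0.906, against a median of 0.782 over all genes.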
